A study of Homo sapiens with 3 samples.

Results

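The 10 genes described here belong to the NRF2 pathway and were chosen by name: the transcription factor gene NFE2L2, which encodes NRF2, its inhibitor KEAP1, and the genes GCLC, GCLM, TXNRD1, NQO1, HMOX1, ME1, ABCC3 and TRIM16. They are 10 of 17219 genes with values in the table, each matched by its symbol to 1 row. Expression was measured by RNA sequencing in KYSE140, an established line of human esophageal squamous carcinoma cells grown in RPMI1640 with serum. The series holds 1 sample with the label of a negative control, whose transfection the labels do not describe, and 2 samples in which DLX5, a homeobox transcription factor, was knocked down by transfected siRNA, with siRNA1 in one and siRNA2 in the other. All 3 come from the same line, so no value below reaches beyond it, and each siRNA was used in 1 sample. Each sample has 2 replicate columns of FPKM (fragments per kilobase of transcript, scaled to the number of mapped reads). Nothing in the labels says that the replicate columns came from separate cultures, and their spread may be technical.

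NRF2 is the main regulator of the cell's defense against oxidants and electrophiles. KEAP1 holds NRF2 in the cytoplasm and presents it to a ubiquitin ligase for degradation; when reactive compounds modify KEAP1, NRF2 escapes, pairs with a small MAF protein and binds antioxidant response elements near its target genes. The pathway is often active in squamous carcinomas, including those of the esophagus, and it is controlled to a large part at the level of the NRF2 protein, which RNA sequencing does not measure.

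The letters of the antioxidant response element were looked for in the promoters of these genes, to show where NRF2 could bind close to their starts. The core was searched as TGACNNNGC on both strands, in RefSeq promoter windows (GRCh38.p14) that run from 250 bases before to 50 bases after a transcript start. Windows were at hand for 8 of the 10 genes, 11 windows in all; HMOX1 and ABCC3 had no entry. The core was found in 5 of the 11 windows, in GCLM, ME1, both windows of TXNRD1 and 1 of 2 of KEAP1. Of 35116 windows of all genes 13.3% held it. Counted by gene, it was in 4 of the 8, and in 4384 of 27305 genes with windows. The genes were picked as members of the pathway, so these counts are a description. With the looser TGANNNNGC, 7 of 11 windows and 41.8% of all windows held a match. The stretches below are all the matches in these windows, with 20 bases on either side, on the strand of the gene. The capitals mark the core, and each line says whether the core reads along the gene's strand or along the opposite one.
GCLM (chr1:93909436-93909484, minus strand, 34 bases before the start, opposite): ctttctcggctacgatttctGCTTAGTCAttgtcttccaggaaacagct
KEAP1 (chr19:10502774-10502822, minus strand, 31 bases before the start, opposite): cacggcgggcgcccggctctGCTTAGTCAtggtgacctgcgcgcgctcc
KEAP1, same window (chr19:10502797-10502845, minus strand, 54 bases before the start, along): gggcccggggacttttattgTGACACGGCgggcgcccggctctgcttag
TXNRD1, first window (chr12:104215660-104215708, plus strand, 99 bases before the start, along): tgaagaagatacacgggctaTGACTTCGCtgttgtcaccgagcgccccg
TXNRD1, first window (chr12:104215751-104215799, plus strand, 8 bases before the start, opposite): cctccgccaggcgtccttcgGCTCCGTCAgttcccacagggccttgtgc
TXNRD1, second window (chr12:104286910-104286958, plus strand, 102 bases before the start, opposite): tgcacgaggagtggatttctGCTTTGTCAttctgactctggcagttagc
ME1 (chr6:83431160-83431208, minus strand, 137 bases before the start, along): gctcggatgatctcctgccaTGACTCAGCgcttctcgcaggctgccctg
ME1, same window (chr6:83431012-83431060, minus strand, after the start, opposite): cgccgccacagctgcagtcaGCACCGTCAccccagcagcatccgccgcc
GCLM and KEAP1 carry the same core, TGACTAAGC, read on the opposite strand. No match in a window says only that these letters are not in it, and a match is no evidence of binding in these cells.

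DLX5, the targeted gene, was at 13.0 FPKM in the control, 3.63 with siRNA1 and 3.25 with siRNA2, which goes with the labels (log2 fold change -1.66 ± 0.18 SE; limma, adjusted p = 0.0210). The depth, estimated from the steps between low values, was 17250000 to 17600000 reads in the 4 replicate columns used as deposited, and was not estimated for the 2 columns computed from means. The labelled cell type was borne out: 5 of 5 squamous markers (KRT5, KRT14, KRT6A, TP63 and SFN) read 92.1 to 3127 FPKM in the control. Their sum, mostly KRT5 and KRT6A, went from 7131 FPKM to 2961 with siRNA1 and 3021 with siRNA2. TP63 changed little, at 92.1 FPKM in the control, 90.6 with siRNA1 and 79.4 with siRNA2. Endothelial markers summed to at most 0.53 FPKM in any sample and glandular ones to at most 0.035, with no value for CDX2. Retinal ones summed to at most 1.85 FPKM (the series' design text speaks of retina). Among 3 fibroblast markers COL1A1 read 15.9 FPKM in the control, 8.76 with siRNA1 and 7.51 with siRNA2, with COL1A2 and DCN at or near 0. Among 3 leukocyte markers CD68 read 6.27, 2.93 and 3.37 FPKM, PTPRC read 0.88 to 1.2, and CD3E had no value. The part of these other cell types' markers in the values below was not tested. All samples are of the same line, and within it fewer cells that express a gene and less RNA per cell cannot be told apart in bulk.

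In the control, TXNRD1 was the most abundant of the 10 transcripts at 158 FPKM, above 96.8% of the 12078 genes with at least 1 FPKM in a sample. TRIM16 followed at 70.8 FPKM and NFE2L2 at 54.0. GCLC at 40.8 FPKM, NQO1 at 38.2 and KEAP1 at 33.7 came next. GCLM stood at 14.6 FPKM, ABCC3 at 12.9 and ME1 at 12 FPKM, and HMOX1 was lowest at 6.75 FPKM. FPKM is per length, so these levels can be set side by side. Within the last group, the replicate columns of GCLM and ABCC3 were 14.3 to 14.8 and 12.3 to 13.5 FPKM and those of ME1 11.7 to 12.3, so GCLM lay above both. The lowest ABCC3 column, 12.33 FPKM, was just above the highest ME1 column, 12.28 FPKM. With the siRNAs this order changed. TRIM16 stood below KEAP1 in both knockdown samples (33.2 against 36.1 FPKM with siRNA1 and 32.6 against 37.6 with siRNA2), and below NFE2L2 with siRNA1. GCLC stood below NQO1 and KEAP1 in both, ME1 above GCLM and ABCC3 in both, and KEAP1 above NFE2L2 with siRNA2.

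**Figure D1:**
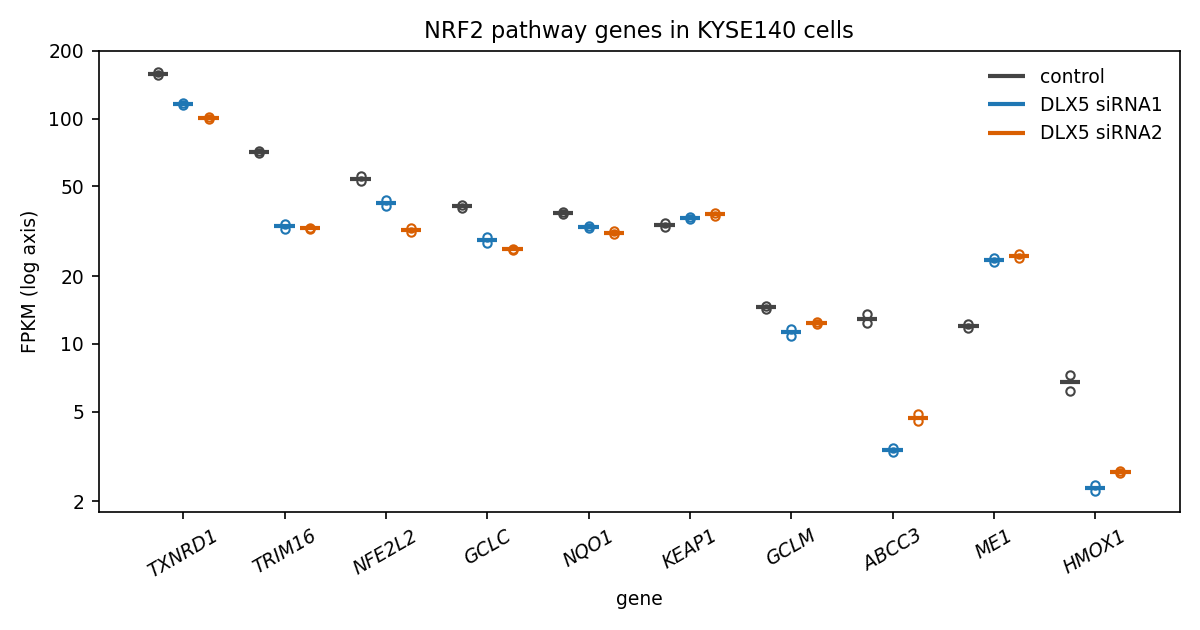
FPKM on a log axis of the 10 genes, ordered by control level, in the control, DLX5 siRNA1 and DLX5 siRNA2 samples; open circles are the 2 replicate columns of each sample and bars their mean. TRIM16, ABCC3 and HMOX1 lie below the control with both siRNAs, ME1 rises from 12 to 23.6 and 24.5 FPKM, and KEAP1 stays between 33.7 and 37.6 FPKM.

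The comparison of the control with the DLX5 siRNA samples asked how expression differs once DLX5 is reduced in squamous carcinoma cells. HMOX1, ABCC3 and TRIM16 were lower in both knockdown samples, by 2.13-fold to 3.82-fold, and ME1 was higher by 1.97-fold and 2.05-fold. The factor itself, NFE2L2, and its best-known targets of glutathione and thioredoxin metabolism, GCLC and TXNRD1, read 1.28-fold to 1.69-fold lower and did not pass the test. NQO1 and GCLM read 1.16-fold to 1.30-fold lower, and KEAP1 slightly above the control. The test was limma on log2(FPKM + 1) with 1 value per sample, 1 control against 2 knockdown samples, with p-values adjusted by Benjamini-Hochberg over all 12078 genes; its spread is that between the 2 siRNA samples.

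By that test 3 of the 10 genes fell and 1 rose, where 1.67% of all genes tested fell and 1.42% rose at an adjusted p under 0.05; 6 did not pass. All 10 had passed the filter of 1 FPKM. The genes were picked with these results known, so the share is a description and not a sign that the pathway stands apart. The median log2 change of the 10 was -0.40 with siRNA1 and -0.63 with siRNA2, against 0.03 and 0.01 over all genes tested. By size, 3 of the 10 were at least 2-fold lower with both siRNAs and 0 at least 2-fold higher, beside 2.24% and 1.26% of all genes tested; ME1 missed the higher class with siRNA1. Other settings ended the calls: limma called 0 of the 10 when low genes were kept and 0 after quantile normalization, with 6 and 7 of them at an unadjusted p under 0.05.

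The 2 regulators read in opposite directions, and neither passed. NFE2L2 (Entrez gene 4780, chromosome 2, 178095031 to 178129859, minus strand, hg19) read 52.6 and 55.4 FPKM in the control columns, 43.5 and 40.8 with siRNA1 and 31.3 and 32.7 with siRNA2. Its 3 samples thus stood apart, with siRNA2 lowest, and the log2 fold change of -0.54 ± 0.20 (SE) did not pass (limma, adjusted p = 0.208). KEAP1 (Entrez gene 9817, chromosome 19, 10596796 to 10614054, minus strand, hg19), the sensor that marks NRF2 for degradation, read 34.4 and 33.0 FPKM in the control, 35.7 and 36.6 with siRNA1 and 37.0 and 38.2 with siRNA2. All its siRNA columns were above both control columns, by a margin of 1.07-fold and 1.12-fold between sample means (log2 fold change 0.13 ± 0.15 SE; limma, adjusted p = 0.704). The ratio of NFE2L2 to KEAP1 FPKM was 1.61 in the control (1.53 to 1.68 over columns), 1.17 with siRNA1 (1.12 to 1.22) and 0.851 with siRNA2 (0.846 to 0.856), so the ranges did not overlap. Those ranges rest on 2 columns per sample, whose spread may be technical. The ratio was not tested, and no share over other pairs of genes was taken. This ratio of transcripts says nothing of the protein ratio, which was not measured.

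Glutamate-cysteine ligase, the rate-limiting enzyme of glutathione synthesis, is made of a catalytic subunit, GCLC, and a modifier subunit, GCLM. GCLC (Entrez gene 2729, chromosome 6, 53362139 to 53409927, minus strand, hg19) read 41.5 and 40.2 FPKM in the control, 29.9 and 28.0 with siRNA1 and 26.4 and 26.1 with siRNA2. It was 1.41-fold and 1.56-fold lower and did not pass (log2 fold change -0.55 ± 0.16 SE; limma, adjusted p = 0.129). GCLM (Entrez gene 2730, chromosome 1, 94350755 to 94375154, minus strand, hg19) read 14.8 and 14.3 FPKM in the control, 11.6 and 10.8 with siRNA1 and 12.3 and 12.5 with siRNA2, again with no overlap between control and siRNA columns (log2 fold change -0.28 ± 0.17 SE; limma, adjusted p = 0.436). The lower level went with siRNA2 for GCLC and with siRNA1 for GCLM; over replicate columns the difference between siRNA samples passed for GCLC (limma, adjusted p = 0.0422) and not for GCLM (adjusted p = 0.0853). The ratio of GCLC to GCLM FPKM went from 2.81 in the control to 2.58 with siRNA1 and 2.12 with siRNA2.

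TXNRD1, the cytosolic thioredoxin reductase, keeps thioredoxin reduced with NADPH. The gene (Entrez gene 7296, chromosome 12, 104609557 to 104744085, plus strand, hg19) read 160 and 156 FPKM in the control, 118 and 115 with siRNA1 and 101 and 99.7 with siRNA2. Each sample stood apart from the others, and the log2 fold change of -0.55 ± 0.15 (SE) did not pass (limma, adjusted p = 0.119). NQO1, which reduces quinones by a 2-electron step that avoids radicals, is widely used as a readout of NRF2. It (Entrez gene 1728, chromosome 16, 69743304 to 69760571, minus strand, hg19) read 37.9 and 38.6 FPKM in the control, 32.8 and 33.3 with siRNA1 and 30.7 and 31.6 with siRNA2. That is 1.16-fold and 1.23-fold lower, with every siRNA column below the control (log2 fold change -0.25 ± 0.15 SE; limma, adjusted p = 0.442).

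HMOX1, the inducible heme oxygenase, breaks heme down to biliverdin, iron and carbon monoxide, and is repressed by BACH1, which competes with NRF2 for its sites. It (Entrez gene 3162, chromosome 22, 35777060 to 35790207, plus strand, hg19) read 7.29 and 6.20 FPKM in the control columns, 2.37 and 2.23 with siRNA1 and 2.68 and 2.72 with siRNA2. The control columns lay far above the siRNA columns but differed from each other more than those of any siRNA sample. HMOX1 fell by 1.15 on the log2 scale (± 0.18 SE; limma, adjusted p = 0.0354), and its mean FPKM was 2.93-fold and 2.50-fold lower. It is the least covered of the 10, with an estimated 200 reads in a control column and 62 and 76 in a column of siRNA1 and siRNA2. BACH1 itself read 5.97 FPKM in the control, 4.70 with siRNA1 and 3.47 with siRNA2 and did not pass (limma, adjusted p = 0.304).

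ABCC3 and TRIM16 were the other genes that fell. ABCC3, an efflux pump for glucuronides and other organic anions (Entrez gene 8714, chromosome 17, 48712218 to 48769063, plus strand, hg19), read 12.3 and 13.5 FPKM in the control, 3.32 and 3.45 with siRNA1 and 4.88 and 4.53 with siRNA2. Its mean was 3.82-fold below the control for siRNA1 and 2.75-fold for siRNA2, further than any other of the 10 with either (log2 fold change -1.48 ± 0.22 SE; limma, adjusted p = 0.0304). TRIM16, a tripartite motif protein (Entrez gene 10626, chromosome 17, 15531280 to 15587625, minus strand, hg19), read 70.0 and 71.5 FPKM in the control, 32.4 and 34.0 with siRNA1 and 32.3 and 32.8 with siRNA2. The siRNA samples overlapped each other and were 2.13-fold and 2.17-fold below the control (log2 fold change -1.08 ± 0.15 SE; limma, adjusted p = 0.0260). The level of TRIM16 is uncertain, since 68.1% of the 30-base stretches of its longest GENCODE transcript also occur in transcripts of other genes. TRIM16L holds 44.4% of the stretches. AC005324.3, whose exons overlap those of TRIM16 on the same strand, holds 39.2%, so part of the 68.1% is shared position in the genome. TRIM16L read 46.4 FPKM in the control, 31.6 with siRNA1 and 25.1 with siRNA2 and did not pass (limma, adjusted p = 0.112). For the other 9 genes the share of stretches found in any other gene was 0% to 5.8%. In GENCODE v29 the exons of NFE2L2 also share 54 bases with AGPS and 190 with an antisense RNA on the opposite strand, and 1054 of 5979 bases with a transcript on its own strand. NQO1 shares 575 of 3254 exon bases with an antisense RNA, TRIM16 357 of 5640 with an antisense RNA and 1327 with AC005324.3, and GCLC 529 of 8646 with a noncoding RNA on its own strand. Whether the counting used strand is not known, so reads from such stretches cannot be assigned to one gene for certain.

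ME1 went the other way. It encodes the cytosolic malic enzyme, which makes NADPH while turning malate into pyruvate. The gene (Entrez gene 4199, chromosome 6, 83920108 to 84140938, minus strand, hg19) read 11.7 and 12.3 FPKM in the control, 24.1 and 23.2 with siRNA1 and 25.1 and 24.0 with siRNA2. The siRNA samples overlapped each other and lay above the control, and ME1 rose by 0.95 ± 0.16 (SE) on the log2 scale (limma, adjusted p = 0.0388). Its promoter window above holds 2 matches to the core. Of the other genes with matches, KEAP1 read higher with both siRNAs and GCLM and TXNRD1 lower, and none of these 3 passed.

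**Figure D2:**
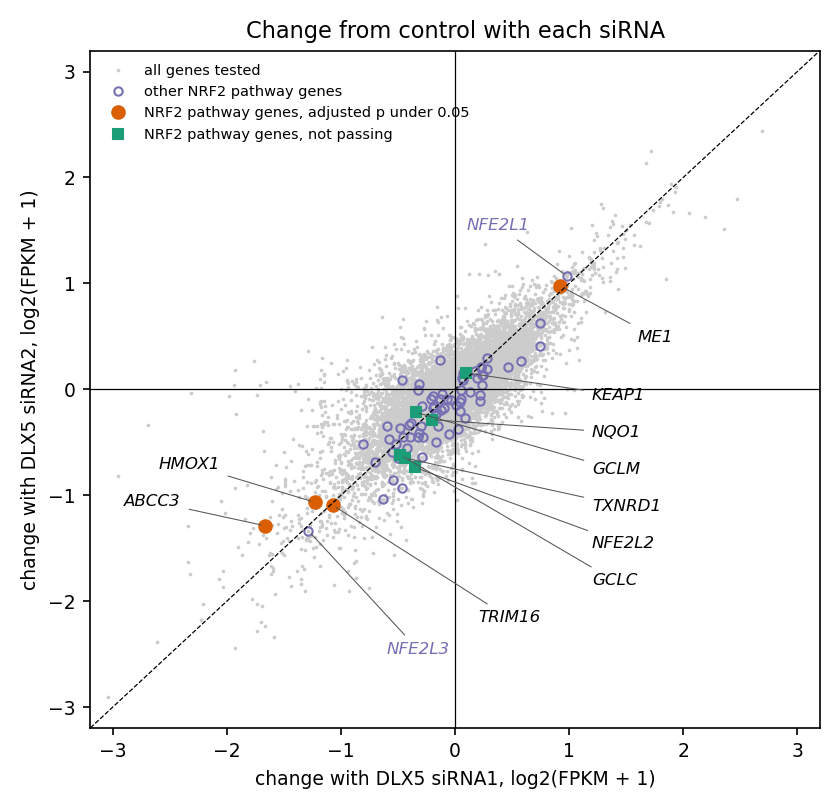
Change from the control on the log2(FPKM + 1) scale with siRNA1 (x axis) and siRNA2 (y axis); grey points are the 12078 genes tested, open circles the other genes of the pathway, filled circles and squares the 10 genes by whether they passed the test, and the dashed line marks equal change. ABCC3, HMOX1 and TRIM16 lie between -1.67 and -1.07 with both siRNAs, ME1 lies at 0.92 and 0.98, and NFE2L2 lies below the line; both changes share the 1 control.

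The replicate columns allow a finer but narrower test, whose spread is only that within samples. All 4 siRNA columns lay below both control columns for 8 of the 10 genes and above them for KEAP1 and ME1; of all genes tested, 26.8% were below in this way and 31.0% above. With the 6 columns as separate values in limma, 8 of the 10 were lower with both siRNAs and ME1 higher at an adjusted p under 0.05, where 18.6% and 21.8% of all genes were. KEAP1 passed with siRNA2 (adjusted p = 0.0136) and not with siRNA1 (adjusted p = 0.0755). The siRNA samples differed from each other for 4 of the 10 genes in the same limma fit, beside 40.4% of all genes. NFE2L2 was lower with siRNA2 than with siRNA1 by 0.39 on the log2 scale, GCLC and TXNRD1 were lower with siRNA2 as well, and ABCC3 was higher with siRNA2. These columns cannot stand for separate transfections, and the effect of each siRNA cannot be told apart from that of its sample.

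Other genes of the pathway were read from a list of 76, in 9 classes by role, of which 69 reached the filter. Of these, 1 fell and 1 rose (limma, adjusted p under 0.05), close to the 1.67% and 1.42% of all genes, and 67 did not pass. Their median log2 change was -0.14 with siRNA1 and -0.15 with siRNA2. Both calls were in the family of NRF2 itself, the cap'n'collar factors, and both were lost when low genes were kept and after quantile normalization (limma called 0, with 15 and 20 genes at an unadjusted p under 0.05). NFE2L1, which drives proteasome genes and shares the antioxidant response element, read 40.8 and 40.2 FPKM in the control, 80.0 and 82.0 with siRNA1 and 84.7 and 87.1 with siRNA2 (log2 fold change 1.02 ± 0.14 SE; limma, adjusted p = 0.0267). NFE2L3, a further member of the family, read 50.5 and 50.1 FPKM in the control, 19.8 and 20.3 with siRNA1 and 19.4 and 19.2 with siRNA2 (log2 fold change -1.31 ± 0.15 SE; limma, adjusted p = 0.0221). In the control NFE2L3, NFE2L2 and NFE2L1 were thus at 50.3, 54.0 and 40.5 FPKM, and with siRNA2 at 19.3, 32.0 and 85.9. NFE2L1 went from the lowest of the 3 to the highest.

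None of the other 8 classes held a gene that passed. The class ranges here and below are of log2 changes averaged over the siRNA samples. Among the 11 genes of ubiquitin ligases and their partners, CUL3 and BTRC among them, the log2 changes ran from -0.47 to 0.29. The adaptor SQSTM1 in this class read 187 FPKM in the control, 172 with siRNA1 and 163 with siRNA2. Of 13 genes of glutathione synthesis and use, 6 read lower with both siRNAs and 2 higher; GSTP1, the most abundant, read 729, 751 and 671 FPKM. The thioredoxin and peroxiredoxin genes moved by -0.25 to 0.02, with PRDX1 at 592, 613 and 588 FPKM. Of these 4 genes 2 read lower with both siRNAs, and PRDX6 read lower with siRNA1 but not with siRNA2 (103, 74.4 and 109 FPKM). Of 6 genes of heme and iron handling, 2 read lower with both siRNAs and 3 higher, within -0.57 to 0.42 on the log2 scale. The ferritin heavy chain FTH1, the most abundant, read 2477 FPKM in the control, 1981 with siRNA1 and 1808 with siRNA2 (limma, adjusted p = 0.128). Of 5 genes of NADPH supply, the class of ME1, 3 read lower and 2 higher with both siRNAs, within -0.37 to 0.15 on the log2 scale, and TKT, the most abundant, read 208, 219 and 220 FPKM.

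The class of xenobiotic and carbonyl metabolism spread most among those without a call, from -0.83 to 0.68. Of its 15 tested genes 12 read lower with both siRNAs and 3 higher, where 36% of all genes tested read lower with both and 41.3% higher. UGT1A6, its most abundant gene, read 104 FPKM in the control, 84.1 with siRNA1 and 81.4 with siRNA2 (limma, adjusted p = 0.267). The 6 efflux and transport genes, relatives of ABCC3 among them, lay between -0.66 and -0.08. Of these, 4 read lower with both siRNAs and 0 higher with both. ABCC2 read slightly higher with siRNA1 and ABCC4 with siRNA2. ABCC1 read 37.9 FPKM in the control, 32.6 with siRNA1 and 35.4 with siRNA2.

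**Figure D3:**
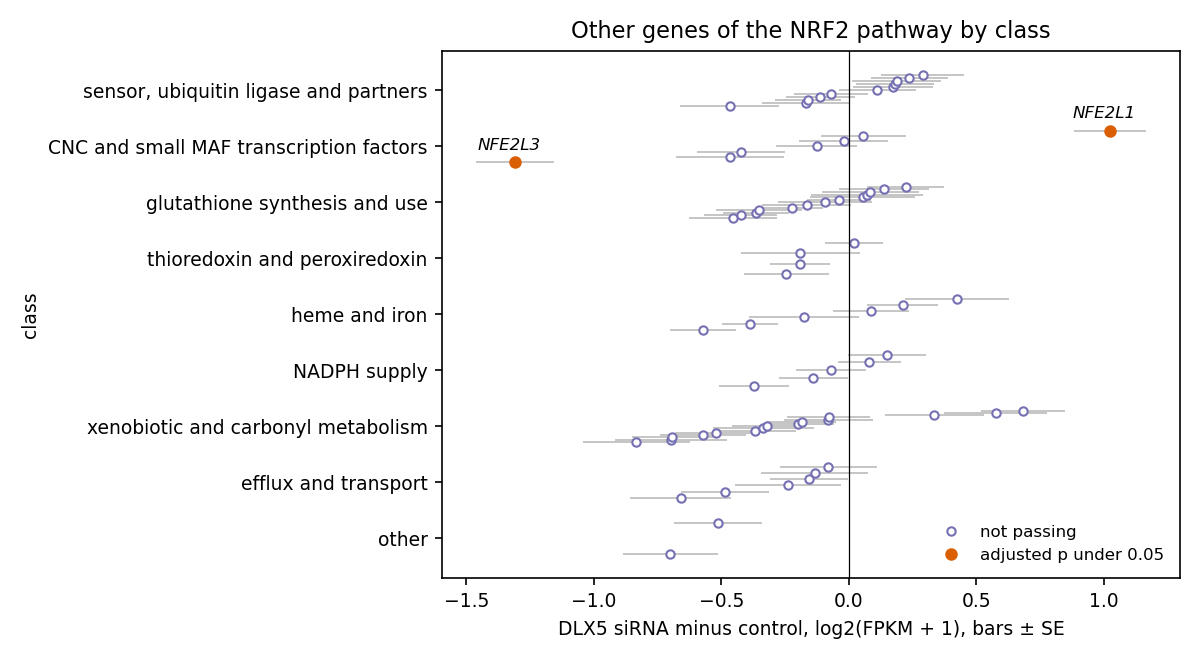
Log2 change of the DLX5 siRNA samples against the control (x axis, log2(FPKM + 1), bars ± SE from limma) for the 69 tested genes of the wider pathway, in rows by class; filled points passed at an adjusted p under 0.05. NFE2L1 at 1.02 and NFE2L3 at -1.31 stand outside the range of -0.83 to 0.68 of all the others.

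The genes whose changes were nearest to those of the genes that passed were taken by the distance between their log2 changes with siRNA1 and siRNA2, over 3 samples, among 6550 genes whose mean reached 10 FPKM. For HMOX1 they were KRT19 and MTUS1 (distances of 0.055 and 0.10), for ABCC3 TINAGL1 and RCN1 (0.091 and 0.17), for TRIM16 TOM1L2 and SFN (0.0066 and 0.025) and for ME1 CLIP1 and TRAK1 (0.021 and 0.031). None of these is in the list of pathway genes. KRT19 went from 169 FPKM to 71.8 and 77.2, and CLIP1 from 9.59 FPKM to 19.1 and 19.5. SFN, also a squamous marker, went from 708 FPKM to 332 and 333. The sum of the squamous markers given above was lower too, though TP63 changed little. The part of these markers in the changes of the 10 genes was not tested.

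A pair of 7-base words was looked for in the annotated 3' untranslated regions of GENCODE v29 transcripts. They were chosen because they were known to be frequent in genes called in these data, so their presence supports nothing about the changes. Each goes with 1 direction. Of tested genes with ACUCAGU 2.66% fell and 0.68% rose, beside 1.5% and 1.52% of those without it. Of tested genes with UCGGAGA 0.702% fell and 7.72% rose, beside 1.68% and 1.25% of those without it. Of the 10 genes ABCC3 alone holds ACUCAGU, while HMOX1 and TRIM16, which also fell, do not. UCGGAGA is in none of the 10, ME1 included. Of the tested genes with such a region, 13.7% hold ACUCAGU and 2.42% UCGGAGA, so these counts are near the shares over all genes. The part of the word in the fall of ABCC3 was not tested.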

How the data were processed

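The authors deposited 1 table of FPKM values with 2 replicate columns and a mean per sample, per the file headers. Per the submitters' processing notes, the tools were RSEM 1.2.12, Bowtie2 2.2.5, HISAT2 2.0.4 and DESeq 3.4, and the build was hg19. Their roles and the strand setting are not given in the sources used here. The table has 19280 lines; 14 had no gene ID and 2047 had no values. A heading given to 2 columns left both unused, and replicate column 1 of each siRNA sample was computed as 2 times the deposited mean minus replicate column 2.

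The main test was limma 3.58.1 (R 4.3.3, mean-variance trend), applied to log2(FPKM + 1) of the 12078 genes that reached 1 FPKM in any sample. It has 1 residual and 5.16 prior degrees of freedom. Its p-values rest on how far the siRNA samples lie from each other, a spread that may be technical, and assume that the single control varies alike. Folds are ratios of FPKM; log2 changes are of log2(FPKM + 1) and understate those of low genes. Depth was estimated from low FPKM of short genes with 1 transcript, where 85.6% to 88.3% of values came within 0.2 reads of a whole number. Reads per gene assume the longest transcript.

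The 10 genes and all lists were chosen with earlier results of these data known. Also named, by rule, are DLX5, pathway genes that passed, changed at least 2-fold with both siRNAs or were the most abundant of their class, and the 2 nearest genes of each of the 10 that passed. BACH1, PRDX6, ABCC2, ABCC4 and the genes named only at an adjusted p under 0.10 fall outside this rule and were chosen after their values were seen. Alternatives were another pseudocount (0.1), keeping low genes, a threshold of 0.10, quantile normalization, replicate columns as values, other sizes, a looser motif and leaving out each siRNA sample. Tables were handled in Python 3.11.15.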

Additional observations from a re-analysis of the deposited data

Results flagged for a closer look

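For 4 of the 10 genes the siRNA samples differed from each other over replicate columns (limma, adjusted p under 0.05), as they did for 40.4% of all genes tested. The log2 difference of siRNA2 minus siRNA1 was -0.387 ± 0.049 (SE) for NFE2L2 (adjusted p = 2.39e-04), -0.206 ± 0.036 for TXNRD1 (adjusted p = 0.00162), -0.137 ± 0.047 for GCLC (adjusted p = 0.0422) and 0.379 ± 0.070 for ABCC3 (adjusted p = 0.00211). The spread behind these limma values is that within samples and does not cover separate transfections.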

How the results depend on the processing

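No paired analysis was possible because the labels give no pairing of samples and the control is a single sample. Direction held for all 10 genes under every alternative run. Of all genes, 373 passed in the main setting, 22 after quantile normalization, 833 at an adjusted p under 0.10 and 4885 with replicate columns as values; without the filter limma called 0 (2444 at an unadjusted p under 0.05). Of the 10 genes, 4 passed with a pseudocount of 0.1 and at 0.10 too, 0 without the filter (6 at an unadjusted p under 0.05), 0 after quantile normalization (7) and 9 with replicate columns. After quantile normalization the adjusted p of the 4 lay between 0.0573 and 0.0738, and without the filter it was 0.320; the cause was not tested. Of the wider pathway, 2 genes passed, 0 without the filter (15 of 76 at an unadjusted p under 0.05), 0 after quantile normalization (20), 5 at 0.10 (FTL, ABHD4 and PIR in addition) and 41 with replicate columns. By size, 422 genes were at least 2-fold changed with both siRNAs, 1340 at 1.5-fold, 244 on FPKM + 1, and 645 to 799 when 1 siRNA sample was left out; of the 10, 3, 4, 3 and 3 to 4. Leaving out a siRNA sample moved NFE2L2 between -0.35 and -0.74. The single control limits what can be called, and depth limits HMOX1 most.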
